A study of Mus musculus with 6 samples.

Results

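Interferon-stimulated genes other than the guanylate-binding proteins were followed in mouse CD8+ T cells grown as Tc1 or Tc17 cells. The list held 40 genes, chosen by name with earlier results of these data known, so its shares beside those of all genes are descriptive. A gene was represented by the probe set annotated with its symbol alone, and by the brightest such probe set over all arrays where there were several. This gave 37 measured genes out of 22180 genes on the array. Oas1a and Dtx3l were listed only on probe sets shared with another symbol and Ifi44 on none, so these 3 genes were not measured.

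The cells were naive CD8+ T cells sorted from mouse spleen and stimulated over 4 days with antibodies to CD3 (1 µg/ml) and CD28 (3 µg/ml). Cultures called Tc1, a type 1 cytotoxic state that makes interferon-gamma, received IL-12 for 3 days. Cultures called Tc17, an IL-17-producing state, received IL-6 and TGF-beta (spelled TGFb in the labels) over the same time, and both were then kept in IL-2 for 1 day. Total RNA was labelled with biotin and measured on 6 Affymetrix arrays, 3 per group. They represent 2 biological samples per group, since the third array of each group is a technical array of sample 2. The labels give no strain, sex or age, and no culture without a polarising cytokine and no culture given interferon was analysed here. The labels name no interferon among the additions, and they do not say whether samples 1 and 2 came from separate animals. The p-values therefore cannot be read as measuring spread between animals. They rest on the spread between these samples, combined with that of all probe sets in the moderated test described below.

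Interferons act through surface receptors and Janus kinases. Type I interferons (alpha and beta) activate a factor holding STAT2 and IRF9 that binds the interferon-stimulated response element (ISRE). Interferon-gamma, the type II interferon, acts through the gamma-activated site (GAS) and induces IRF1, which also binds ISRE-like letters. Antiviral genes such as the Ifit, Mx and Oas families are the best known targets of the first route, and the immunity-related GTPases, which attack vacuoles holding intracellular microbes, are strong targets of the second. In CD8+ T cells interferon-gamma is itself a main product of the type 1 state.

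The promoters of 5 members are shown because they carry the letters of one or both routes. Of these 5 genes Igtp was called lower in Tc17, and the other 4 were not called. Igtp, Irgm2 and Irgm1 encode immunity-related GTPases, Isg15 encodes the ubiquitin-like ISG15 and Ifit1 encodes a protein that binds foreign RNA ends. Each line gives the 120 bases before the transcription start, 5′ to 3′ on the gene's strand, from RefSeq on build GRCm38.p6. Capitals mark the ISRE core GAAANNGAAA on either strand (TTTCNNTTTC when read from the other one) and the GAS core TTCNNNGAA, which reads the same on both strands. The windows lie at chr11:58199436-58199555 (plus strand, Igtp), chr11:58214857-58214976 (plus, Irgm2), chr11:48871421-48871540 (minus, Irgm1), chr4:156200819-156200938 (minus, Isg15) and chr19:34640769-34640888 (plus, Ifit1).
Igtp: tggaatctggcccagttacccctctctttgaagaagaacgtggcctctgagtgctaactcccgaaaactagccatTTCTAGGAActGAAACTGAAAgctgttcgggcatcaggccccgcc
Irgm2: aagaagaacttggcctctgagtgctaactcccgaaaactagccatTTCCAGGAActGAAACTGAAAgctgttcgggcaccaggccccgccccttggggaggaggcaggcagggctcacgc
Irgm1: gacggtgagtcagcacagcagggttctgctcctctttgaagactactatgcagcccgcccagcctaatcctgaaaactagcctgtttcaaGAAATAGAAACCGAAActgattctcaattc
Isg15: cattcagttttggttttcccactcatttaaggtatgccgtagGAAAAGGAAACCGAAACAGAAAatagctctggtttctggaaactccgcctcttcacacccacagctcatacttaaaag
Ifit1: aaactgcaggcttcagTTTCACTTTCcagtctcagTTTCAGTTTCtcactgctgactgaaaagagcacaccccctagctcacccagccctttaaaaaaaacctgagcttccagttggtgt

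Igtp and Irgm2, which are next to each other among the protein-coding genes of chromosome 11, have a GAS core followed after 2 bases by an ISRE core. Counted from the first base of the GAS core, these 21 bases differ by T4C (Igtp base first, Irgm2 base second), and 20 are identical. With the elements set in register, 87 of 90 bases (96.7%) of both windows were identical, the Igtp element lying 30 bases closer to its start. Irgm1 has overlapping ISRE cores and no GAS core in the window shown, Isg15 has a run of overlapping ISRE cores, and Ifit1 has a pair of separate ones on the other strand.

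The arrays matched their labels at the genes that define the cultures. Il17a, the cytokine gene of the Tc17 state, measured 6.32 ± 0.04 in Tc1 and 11.53 ± 0.50 in Tc17 (log2 RMA intensity, SD, n = 2 biological samples). Cd8a and Cd8b1 lay between 12.75 and 13.01 on every array, and Cd4 between 6.80 and 7.36. The 6 array medians ran from 6.04 to 6.09, and the number of arrays limits the precision of every value below. In a bulk sample, fewer cells making an RNA and less of it per cell cannot be told apart.

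Of the 37 measured genes, 3 fell in Tc17 and 0 rose at an adjusted p of 0.05 in limma's moderated test, which was fitted and adjusted over all 41345 probe sets. The share of all 22180 genes called lower was 0.591%, and the share called higher was 0.992%. At an unadjusted p under 0.05, 15 members were lower and 1 was higher, against 6.79% and 9.1% of all genes. The 3 Tc17 arrays lay entirely below the 3 Tc1 arrays for 19 members and entirely above for 2, where the shares of all genes were 14.5% and 15.2%. Differences were below 0 for 29 members (78.4%) and for 54.2% of all genes. The median log2 difference (Tc17 minus Tc1) was −0.27 over the members and −0.01 over all genes. On the log2 scale 17 of the 37 members differed by under 0.25, as did 18225 of all 22180 genes, and 5 members differed by at least 1, as did 457 of all genes. The 3 calls were lost when any single biological sample was left out, and none of the 37 passed in those 4 fits, where 10 to 19 were lower at an unadjusted p under 0.05. The 3 calls were also lost in a test without moderation of the variances.

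**Figure D1:**
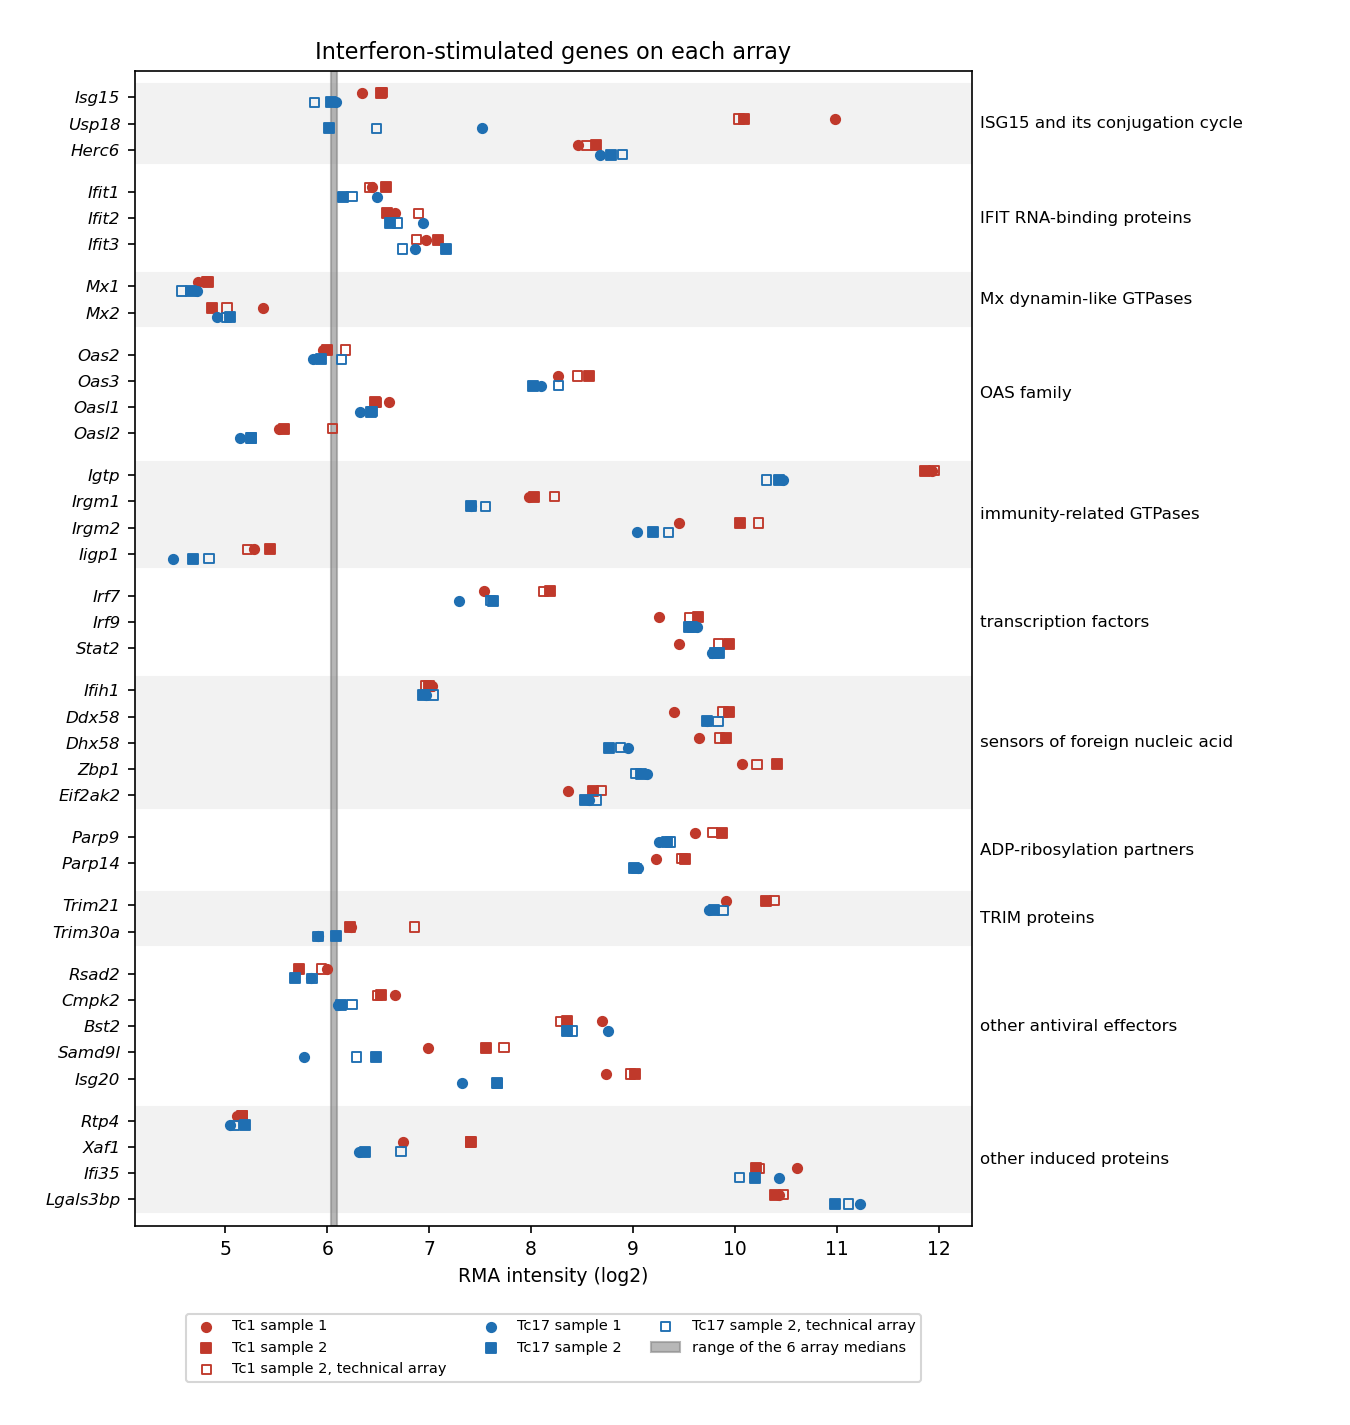
RMA log2 intensity of the 37 measured interferon-stimulated genes on each of the 6 arrays, in red for Tc1 and blue for Tc17, with circles for sample 1, filled squares for sample 2 and open squares for its technical array; the grey band spans the array medians. The Usp18, Igtp, Isg20, Zbp1, Dhx58 and Samd9l points of the groups stand apart, while those of the Ifit genes, Stat2, Irf9, Ddx58 and Eif2ak2 overlap.

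Signal limits part of the list. In either group, the means of Mx1, Mx2, Oas2, Oasl2, Iigp1, Rsad2 and Rtp4 were under all 6 array medians, as were those of 8496 of all 22180 genes. Isg15 and Trim30a lay there in Tc17 only. The files give no detection call, so signal above background was not shown for these 9 genes where they were dim, and folds are ratios of intensities. Without the 7 genes that were dim in both groups, 13 of 30 members (43.3%) were lower at an unadjusted p under 0.05 in limma's test. The share was 9.63% of the 13684 genes chosen the same way, and the medians were −0.33 and 0.00 on the log2 scale. Isg15 and Trim30a stayed among the 30 through their Tc1 level alone, and both were among the 13, so this share is no separate support. Of the 13684 genes, 296 were dim in Tc17 only.

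The immunity-related GTPases were the one role group of more than 2 genes in which all members had separate arrays, with the Tc17 arrays below. Igtp (also named Irgm3), which encodes a regulatory GTPase of this family, measured 11.93 on the Tc1 sample 1 array and 11.86 and 11.95 on the arrays of Tc1 sample 2. In Tc17 it measured 10.47 in sample 1 and 10.43 and 10.31 in sample 2. Arrays of one group were within 0.16 of each other and the groups were separated by far more than that. Igtp fell by 1.50 on the log2 scale, a 2.83-fold decrease (SE 0.08, limma adjusted p = 0.0099). The adjusted p ran from 0.0587 to 0.07 when each sample was left out.

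Irgm1, a further regulatory GTPase, measured 7.98, 8.02 and 8.23 on the Tc1 arrays and 7.41, 7.41 and 7.55 on the Tc17 arrays. Its log2 difference of −0.61 ± 0.09 (SE) missed the threshold (adjusted p = 0.0804, limma). Iigp1, an effector GTPase that coats the vacuole of Toxoplasma, measured 5.28, 5.44 and 5.21 in Tc1 and 4.49, 4.68 and 4.84 in Tc17. All 6 of its values lie in the dim range, and the log2 difference of −0.68 missed the threshold (adjusted p = 0.107, limma). Irgm2 measured 9.45 in Tc1 sample 1, 10.05 and 10.23 on the arrays of Tc1 sample 2, and 9.04, 9.19 and 9.35 in Tc17. The Tc1 samples of Irgm2 differed from each other by 0.69, about as much as the groups did, and the log2 difference of −0.64 had a 95% interval from −1.30 to 0.01. Igtp and Irgm2 share most of the promoter letters printed above, and their log2 differences were −1.50 and −0.64; the difference between the genes was not tested.

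**Figure D2:**
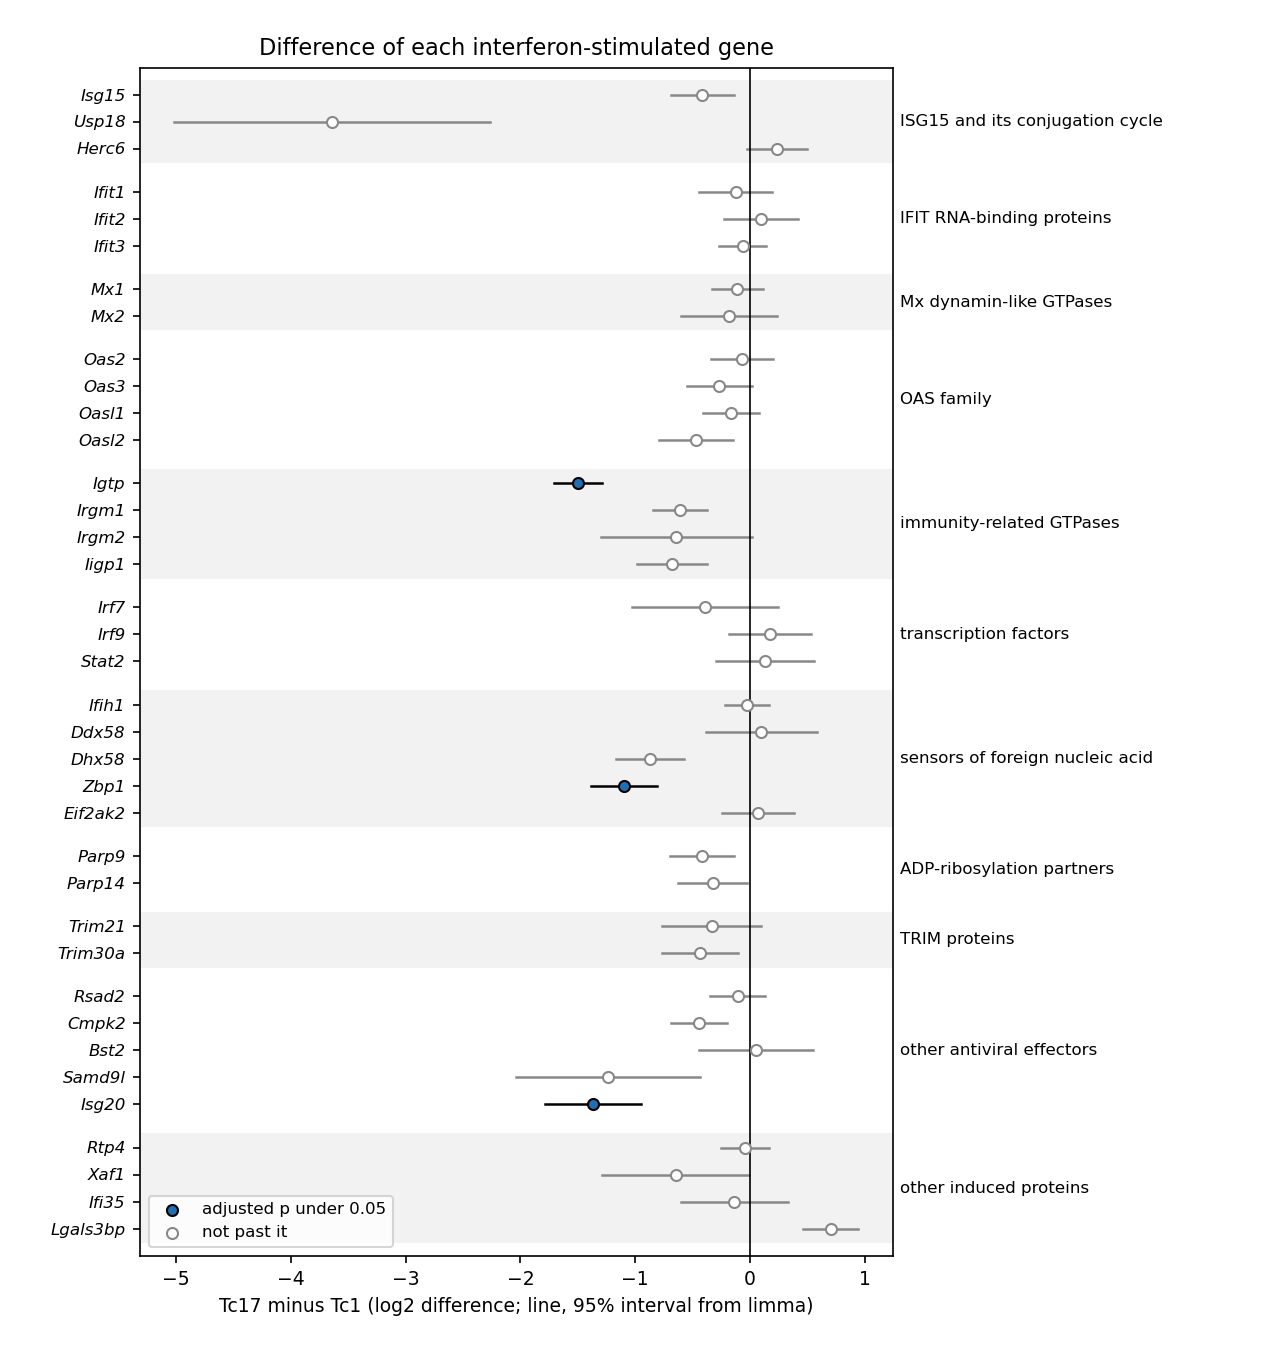
Log2 difference (Tc17 minus Tc1) of each of the 37 measured genes, grouped by role, with limma's 95% interval as a line and filled points for an adjusted p under 0.05. The 3 filled points are Igtp, Zbp1 and Isg20; Usp18 lies far to the left at −3.64 with an interval from −5.01 to −2.27.

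Genes of the ISG15 system had differences of either sign. Usp18 encodes the protease that removes ISG15 from proteins and also dampens type I interferon receptor signalling. It measured 10.98 in Tc1 sample 1 and 10.09 and 10.04 on the arrays of Tc1 sample 2, against 7.52 in Tc17 sample 1 and the pair 6.01 and 6.48 from Tc17 sample 2. The groups were far apart and the samples within each group differed as well, sample 1 being higher in both. The log2 difference of −3.64 ± 0.52 (SE), a 12.5-fold ratio, missed the threshold (adjusted p = 0.0755, limma), although only 13 of all 22180 genes had a lower difference. Usp18 passed under 5 of 14 alternatives, namely 6 arrays as separate samples, the replicate block, averaged probe sets and both filters on level. The upper-quartile filter asked for 2 arrays above the upper quartile, and Usp18 met it through Tc1 arrays alone. Its Tc17 arrays all lay below the upper quartile of every array (8.13 to 8.20). Passing under that filter is therefore no separate support for a difference.

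Isg15 itself measured 6.34, 6.53 and 6.54 in Tc1 and 6.08, 6.04 and 5.87 in Tc17. Its arrays did not overlap, and the log2 difference of −0.42 ± 0.10 (SE) missed the threshold (adjusted p = 0.212, limma). Herc6, the main ligase that attaches ISG15 in the mouse, measured 8.46, 8.64 and 8.55 in Tc1 and 8.68, 8.78 and 8.90 in Tc17. It was one of the 2 members with all Tc17 arrays above all Tc1 arrays, by 0.23 on the log2 scale (limma adjusted p = 0.433).

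The Ifit and Mx genes differed by under 0.25 between the groups, as did 18225 of all 22180 genes. Ifit1, Ifit2 and Ifit3 were grouped as genes of RNA-binding proteins, and Ifit1 measured 6.44, 6.58 and 6.42 in Tc1 and 6.49, 6.15 and 6.24 in Tc17. Its log2 difference of −0.13 had a 95% interval from −0.44 to 0.19. The Ifit1 values lay little above the array medians of 6.04 to 6.09, so a large fall could hardly have been seen at this level. Ifit2 and Ifit3 had log2 differences of 0.09 (interval −0.22 to 0.41) and −0.07 (interval −0.27 to 0.14). The arrays of all 3 Ifit genes overlapped between the groups. Mx1 and Mx2, dynamin-like GTPases that block virus replication, measured 4.57 to 4.83 and 4.87 to 5.37 over the 6 arrays, with log2 differences of −0.11 and −0.18. The groups overlapped for Mx2, and for Mx1 the highest Tc17 array (4.72) lay just under the lowest Tc1 array (4.73). All values of both Mx genes lay under the array medians, so signal above background was not shown for them.

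Among the Oas genes, whose products answer double-stranded RNA, 0 of 4 measured genes passed in limma's test and 1 was lower at an unadjusted p under 0.05. That gene was Oasl2, with 5.53, 5.58 and 6.05 in Tc1 and 5.14, 5.25 and 5.26 in Tc17 (limma adjusted p = 0.23). One Tc1 array, the technical array of sample 2, stood 0.48 above the other array of the same sample. Oas3 measured 8.26, 8.57 and 8.46 in Tc1 and 8.10, 8.01 and 8.27 in Tc17, which overlapped, with a log2 difference of −0.27. Oasl1 differed by −0.16 without overlap, and Oas2 by −0.07 with it.

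The 3 transcription factor genes overlapped between the groups. Stat2, which joins IRF9 in the type I interferon factor, measured 9.45 in Tc1 sample 1, 9.94 and 9.84 on the arrays of Tc1 sample 2, and 9.77, 9.84 and 9.80 in Tc17. The Tc17 arrays lay inside the Tc1 range, and the log2 difference was 0.13 (interval −0.30 to 0.55). Irf9 measured 9.25, 9.63 and 9.56 in Tc1 and 9.63, 9.55 and 9.59 in Tc17, with a log2 difference of 0.18. Irf7, the factor that amplifies interferon-alpha production, measured 7.54, 8.19 and 8.12 in Tc1 and 7.29, 7.63 and 7.60 in Tc17. Its log2 difference of −0.39 had an interval from −1.03 to 0.24, and here too Tc1 sample 1 was the low one of its group.

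The sensors of foreign nucleic acid divided. Zbp1 encodes a sensor of Z-form nucleic acid that can trigger necroptosis. It measured 10.07, 10.41 and 10.22 on the Tc1 arrays and 9.13, 9.08 and 9.03 on the Tc17 arrays. The Tc17 arrays were within 0.10 of each other, and all lay below every Tc1 array. Zbp1 fell by 1.10 on the log2 scale, a 2.14-fold decrease (SE 0.11, limma adjusted p = 0.0347; 0.0835 to 0.177 leaving out each sample). The call was also lost without the technical arrays (limma adjusted p = 0.0529).

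Dhx58, which encodes LGP2, a partner of the RNA helicase sensors, measured 9.64, 9.91 and 9.85 in Tc1 and 8.95, 8.77 and 8.88 in Tc17. Its log2 difference of −0.87 ± 0.11 (SE) missed the threshold (adjusted p = 0.0625, limma), and it passed under 5 of 14 alternatives. The helicase sensors themselves, Ifih1 (MDA5) and Ddx58 (RIG-I), had overlapping arrays. Ifih1 stayed between 6.94 and 7.04 on all 6 arrays, with a log2 difference of −0.03 (interval −0.22 to 0.16). Ddx58 measured 9.40 in Tc1 sample 1, 9.94 and 9.88 on the arrays of Tc1 sample 2, and 9.73, 9.72 and 9.84 in Tc17, a log2 difference of 0.10. Eif2ak2, which encodes the translation-blocking kinase PKR, had a log2 difference of 0.07 (interval −0.24 to 0.38).

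Isg20, a gene of an RNA-degrading exonuclease, was the last of the 3 members that passed. It measured 8.73 in Tc1 sample 1 and 9.02 and 8.97 on the arrays of Tc1 sample 2, against 7.32 in Tc17 sample 1 and the pair 7.66 and 7.67 from Tc17 sample 2. Sample 2 was higher than sample 1 in both groups, by 0.26 and 0.34, and the groups did not overlap. Isg20 fell by 1.37 on the log2 scale, a 2.58-fold decrease (SE 0.16, limma adjusted p = 0.0489), close to the threshold, and the adjusted p was 0.0948 to 0.175 leaving out each sample. It was 0.054 with limma's trend and robust settings.

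Samd9l, a gene of a growth- and translation-restricting protein, measured 6.98, 7.55 and 7.73 in Tc1 and 5.77, 6.48 and 6.29 in Tc17. Its log2 difference of −1.24 ± 0.30 (SE) was nearly that of Isg20 and did not pass (limma adjusted p = 0.205). Sample 2 lay above sample 1 by 0.66 in Tc1 and 0.61 in Tc17, and the groups did not overlap. Cmpk2 and Rsad2 lie next to each other in the genome and encode a nucleotide kinase and viperin, the enzyme that uses its product. Cmpk2 measured 6.67, 6.52 and 6.49 in Tc1 and 6.10, 6.13 and 6.24 in Tc17, without overlap. The arrays of Rsad2 overlapped, and the log2 differences were −0.44 and −0.11 (limma adjusted p = 0.158 and 0.704). Bst2, which encodes tetherin, the protein that holds budding virus at the cell surface, had a log2 difference of 0.05 (interval −0.44 to 0.55).

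The ADP-ribosylation and TRIM genes showed small differences of one sign. Parp9 and Parp14, interferon-induced ADP-ribosyltransferase genes, had no overlap between groups, with log2 differences of −0.42 and −0.33. Parp9 measured 9.61, 9.88 and 9.78 in Tc1 and 9.25, 9.33 and 9.37 in Tc17, and Parp14 9.23, 9.51 and 9.48 against 9.05, 9.01 and 9.03. Trim21, which encodes a cytosolic antibody receptor, and Trim30a had log2 differences of −0.34 and −0.44. In Trim30a the technical array of Tc1 sample 2 (6.85) stood apart from the other Tc1 arrays (6.23 and 6.24). The Tc17 arrays of these 4 genes lay below every Tc1 array, and none of the 4 passed (limma adjusted p from 0.217 to 0.493).

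Of the remaining induced genes, Lgals3bp had the highest difference of all members. It encodes a secreted glycoprotein that binds galectins, and it measured 10.43, 10.39 and 10.48 in Tc1 and 11.22, 10.98 and 11.11 in Tc17. The groups did not overlap, and the log2 difference of 0.70 ± 0.09 (SE) missed the threshold (adjusted p = 0.0634, limma). Its other probe set differed by 0.37 in the same direction (limma adjusted p = 0.452). Xaf1, a gene whose protein binds the apoptosis inhibitor XIAP, measured 6.74, 7.41 and 7.41 in Tc1 and 6.31, 6.37 and 6.72 in Tc17, a log2 difference of −0.65 (limma adjusted p = 0.371). Ifi35 and Rtp4 had overlapping arrays and log2 differences of −0.14 and −0.05, and the other probe set of Ifi35 differed by −0.17.

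**Figure D3:**
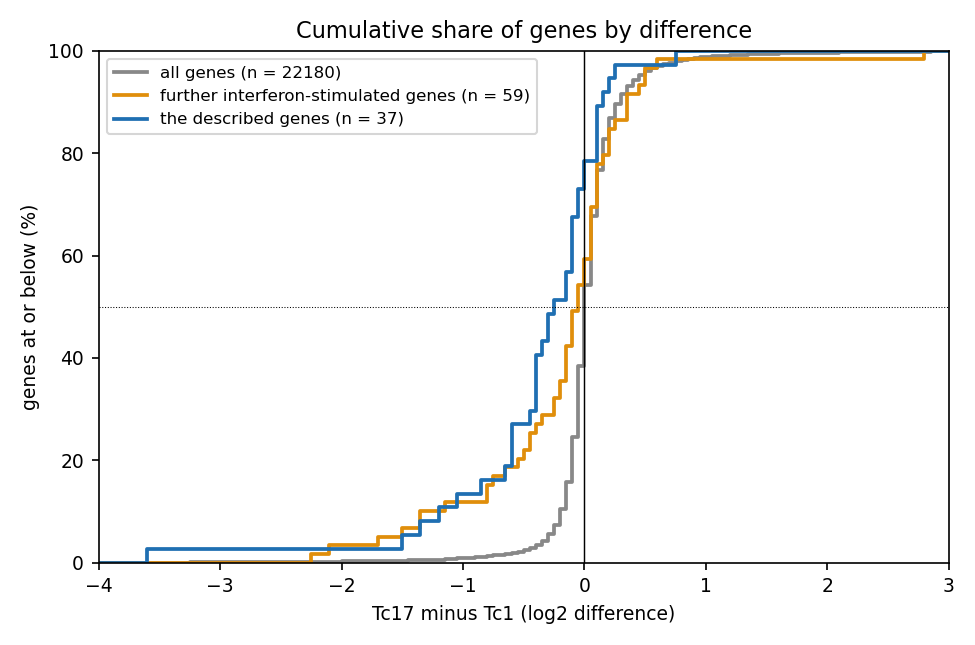
Cumulative share of genes (%) by log2 difference (Tc17 minus Tc1) for the 37 measured members, for 59 further interferon-stimulated genes and for all 22180 genes. The members' curve lies to the left of that of all genes, crossing 50% at the median of −0.27.

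The upstream genes differed by layer. Ifng, the interferon-gamma gene, measured 13.18, 12.79 and 12.86 in Tc1 and 7.79, 7.11 and 7.34 in Tc17 and fell by 5.49 on the log2 scale (limma adjusted p = 0.0056). Ifnb1 and 7 more of the 14 measured interferon genes had both group means under all 6 array medians, and among the interferon genes only Ifng was called. Of 17 measured receptor and signalling genes Irf1 fell and Ifngr2 rose. Irf1, the transcription factor gene induced by interferon-gamma, fell by 1.17 on the log2 scale (limma adjusted p = 0.0296; 0.0942 to 0.148 leaving out each sample). Ifngr2, the signalling chain of the interferon-gamma receptor, rose by 4.00 on the log2 scale (limma adjusted p = 0.0048). The other chain, Ifngr1, and the type I receptor genes Ifnar1 and Ifnar2 differed by −0.16, −0.06 and 0.17. Socs1, a feedback inhibitor gene, measured 10.32, 10.01 and 10.06 in Tc1 and 10.79, 10.84 and 10.71 in Tc17 and did not pass (log2 difference 0.60, limma adjusted p = 0.145).

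A second list of 71 interferon-stimulated genes had 59 measured members. Gm12250 (Irgb10), Epsti1 and Nlrc5 fell and Apol9b rose, where 0.591% of all genes were called lower and 0.992% higher. The list's median log2 difference was −0.10. Gm12250, an immunity-related GTPase gene, measured 10.48, 10.52 and 10.52 in Tc1 and 8.19, 8.20 and 8.29 in Tc17, a 4.88-fold decrease (limma adjusted p = 0.0039). It was called in each of the 4 fits that left out a sample (adjusted p 0.0286 to 0.042). Nlrc5, the activator of MHC class I genes, and Epsti1 fell by 1.37 and 1.71 on the log2 scale (limma adjusted p = 0.0287 and 0.0437), and both lost the call when any sample was left out. Epsti1 also lost it under quantile normalization (limma adjusted p = 0.0502).

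Apol9b, an apolipoprotein L gene, ran the other way. It measured 5.07, 4.62 and 4.63 in Tc1 and 7.76, 7.51 and 7.53 in Tc17 and rose by 2.79 on the log2 scale (limma adjusted p = 0.0133; 0.0407 to 0.0831 leaving out each sample). The call held without Tc1 sample 1 and was lost without any other sample. The Tc1 values lie below every array median. Ifitm3, an antiviral membrane protein gene, had a log2 difference of −2.13 and Casp4, an inflammatory caspase gene, one of −1.52, and neither passed (limma adjusted p = 0.0656 and 0.189). Ifitm3 passed without Tc1 sample 1 (adjusted p = 0.034). Of the 59 genes 13 (22.0%) were lower and 6 higher at an unadjusted p under 0.05 in limma's test, against 6.79% and 9.1% of all genes. Differences were below 0 for 35 (59.3%), near the 54.2% of all genes. The Tc17 arrays lay entirely below the Tc1 arrays for 17 and entirely above for 14, against 14.5% and 15.2% of all genes.

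The Tc1 samples differed from each other at these genes by more than the median gene. In Tc1, sample 2 was above sample 1 for 28 of 37 members, against 50.6% of all genes, and by more than 0.25 for 13, against 8.21%. The median size of this difference was 0.24 for the members and 0.10 for all genes. The 2 arrays of Tc1 sample 2 differed by a median of 0.08 for the members and 0.07 for all genes. The members with the largest excess in Tc1 sample 2 were Irgm2 (0.69), Xaf1 (0.67), Samd9l (0.66), Irf7 (0.62), Ddx58 (0.51), Stat2 (0.44) and Trim21 (0.44).

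In Tc17 the samples differed less. Sample 2 was above sample 1 for 23 of 37 members, against 52.5% of all genes, and the median size was 0.11 against 0.09. Samd9l, Isg20 and Irf7 were again higher in sample 2, by 0.61, 0.34 and 0.33, and Usp18 was lower in sample 2 in both groups, with differences of −0.92 in Tc1 and −1.27 in Tc17. Ifng was lower in sample 2 in both groups, and Ifnb1 lay between 4.17 and 4.34 on all 6 arrays. The part of these levels in the spread was not tested. Without Tc1 sample 1 the median of the members was −0.36, and without Tc1 sample 2 it was −0.20.

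**Figure D4:**
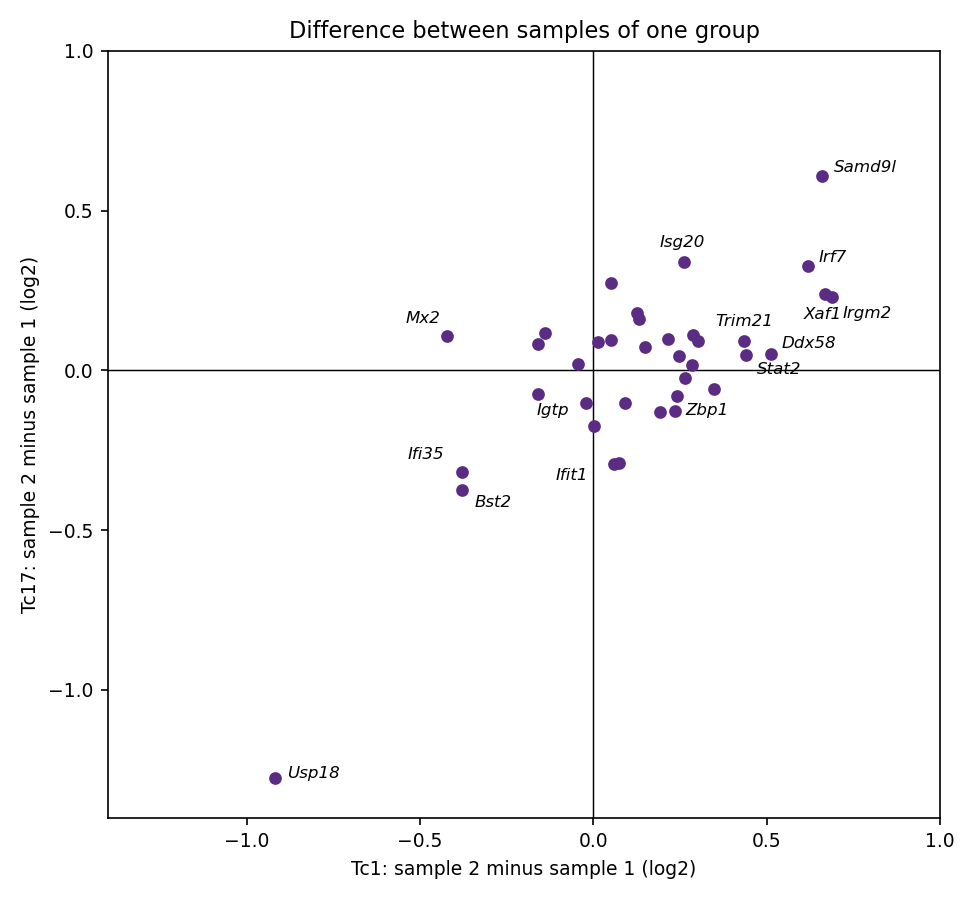
Sample 2 minus sample 1 (log2) for the 37 measured genes, in Tc1 on the horizontal axis and in Tc17 on the vertical axis, with the arrays of sample 2 averaged and selected genes named. In Tc1 28 points lie to the right of 0, and Usp18 lies at −0.92 and −1.27.

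Motif cores were counted in the 250 bases before each RefSeq start, for 30 of the 40 genes. Dhx58, Iigp1, Mx1, Mx2, Oas2, Parp14, Parp9, Rtp4, Usp18 and Zbp1 have no entry. An ISRE core was found for 12 of the 30 genes (40%) and for 3.46% of the 27025 genes of the table, counting a gene once if any of its starts had it. A GAS core was found for 7 (23.3%) and for 8.13% of all genes, and both for 4 (13.3%) and for 0.459%. Counted by window, the shares of all 32851 windows were 2.98% for the ISRE core and 7.02% for the GAS core. These genes are named for their response to interferon, so the excess describes the list and not these samples.

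The differences between Tc17 and Tc1 overlapped between members with and without a core, and no test was run. The 11 measured genes with an ISRE core had log2 differences from −1.50 to 0.13 with a median of −0.27 and 9 below 0, and the 16 without one from −1.37 to 0.70 with a median of −0.15 and 10 below 0. The 6 with a GAS core ran from −1.50 to 0.09 with a median of −0.29 and 3 below 0, and the 21 without one from −1.24 to 0.70 with a median of −0.16 and 16 below 0. Of the 6 measured genes with a GAS core, Igtp, Isg20 and Irgm2 had differences below 0, and Bst2, Eif2ak2 and Ifit2 above 0 and at most 0.09. Isg15 and Ifit1, with the ISRE runs printed above, had differences of −0.42 and −0.13. A match describes letters only and shows no binding.

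**Figure D5:**
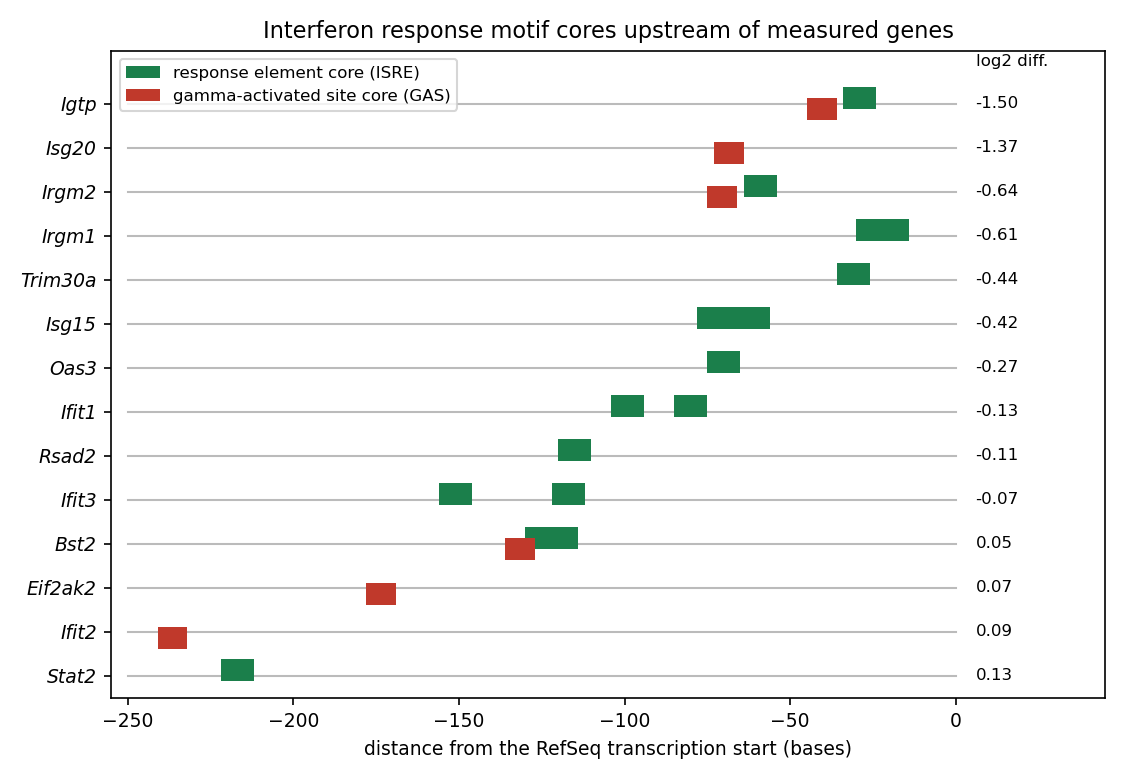
Positions of ISRE cores (green) and GAS cores (red) in the 250 bases before the transcription start of 14 measured genes that hold one, in bases from the start, ordered by log2 difference (Tc17 minus Tc1, printed at the right). Igtp and Irgm2 have both cores side by side, and in Bst2 they overlap.

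Markers of other cell types were read on the same arrays. The mean log2 level of 9 measured CD8 T cell markers lay between 12.04 and 12.11 on the Tc1 arrays and between 12.10 and 12.14 on the Tc17 arrays. That of 7 plasmacytoid dendritic cell markers, Bst2 among them, lay between 6.39 and 6.42 in Tc1 and between 6.34 and 6.40 in Tc17. Of these 7 genes 4, Siglech among them, had both group means below every array median. The group means of Bst2, Tcf4 and Lair1 ran from 7.29 to 8.61. The ranges were 6.25 to 6.50 in Tc1 and 6.65 to 6.71 in Tc17 for 12 macrophage and monocyte markers, 6.22 to 6.26 and 6.72 to 6.78 for 7 B cell markers, and 5.70 to 5.75 and 6.14 to 6.19 for 6 neutrophil markers. In each of these 3 lists 1 gene rose, Lyz2, Ebf1 and Ly6g, by 3.53, 3.13 and 2.52 on the log2 scale. The median log2 differences of the lists were smaller, at 0.10, 0.01 and 0.02. At an unadjusted p under 0.05 in limma's test the higher genes numbered 5, 2 and 1 and the lower ones 1, 0 and 0. Of the B cell genes Ms4a1 measured 4.09 to 4.38 over the 6 arrays, under all array medians, while Cd79b measured 9.68 to 9.91 in Tc1 and 10.22 to 10.39 in Tc17 and was not called (limma adjusted p = 0.162). None of the 6 dendritic cell, 4 NK cell, 3 CD4 T cell and 1 red cell markers measured was called in limma's test, where 1 NK cell marker was lower and 1 higher at an unadjusted p under 0.05. Their part in the results above was not tested.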

How the data were processed

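Per the submitters' processing notes, the authors used RMA and Partek (versions and roles not given in the sources used here), and the deposited values fitted log2 intensities. RMA corrects background, normalizes between arrays and summarises probe sets. Which arrays were normalized together is not given in the sources used here, nor is the build. The technical array of each group was averaged with sample 2, leaving 2 samples per group. All 41345 probe sets were fitted without a filter with limma 3.58.1 (lmFit, eBayes) in R 4.3.3 and adjusted by Benjamini-Hochberg, threshold 0.05, with 2 residual and 2.63 prior degrees of freedom; 95% intervals came from the same fit and are not adjusted. The fit was tested on simulated data first. Symbols came from the platform annotation (23521 probe sets with 1, 1814 with several, 16010 with none). Probe sequences were not used, so cross-hybridisation between paralogs of the Ifit, Oas and GTPase families was not checked.

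The members and lists were chosen with earlier results of these data known. All 37 measured members are named. Of the second list every called gene is named, with the 2 uncalled genes of largest difference, and Ifng, Irf1, the receptor chains, Socs1, Ifnb1 and Il17a were named whatever their values. Alternatives changed the reading of the technical array, the normalization, filters on level, the eBayes settings, the replicate block, the samples included and the probe sets of a gene. Figures used matplotlib 3.10.9 and pandas 2.3.3.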

Additional observations from a re-analysis of the deposited data

How the results depend on the processing

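The count of members lower in Tc17 was 3, and it was 11 with the 6 arrays as separate samples, 5 under either filter on level (fewer features tested, 30 and 18 members left), 7 with averaged probe sets per gene (fewer features tested) and 0 without moderation, where 8 were lower at an unadjusted p under 0.05. It was 2 to 3 under the other settings of normalization, eBayes and technical array, and 0 without any one sample. Usp18 and Isg20 were among the 5 lower members under the upper-quartile filter, which both met through their Tc1 arrays alone. Passing under that filter is no separate support for a difference in either gene. The higher count was 0, and 1 (Lgals3bp) with 6 separate arrays and under either filter. Over all probe sets 418 were called, and 2318, 648, 874 and 0 with 6 arrays, the filter on the mean, the mean of probe sets and no moderation, and 48 to 125 without one sample. The second list had 3 lower and 1 higher, and 10 and 5 with 6 arrays, 5 and 2 with the mean of probe sets, 0 and 0 without moderation, and 0 higher under the upper-quartile filter; without one sample it had 1 to 3 lower and 0 to 1 higher. Receptor and signalling genes had 1 lower and 1 higher, 3 higher with 6 arrays, 0 and 0 without moderation, and 0 lower without any one sample. Apol9b, the higher gene of the second list, was not tested under the upper-quartile filter. On all 6 arrays it lay below the upper quartile. The cause of changes other than fewer features or samples was not tested. The members' median ran from −0.36 to −0.20 without one sample.

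With the replicate number as a block, 8 members were lower (Igtp, Zbp1, Isg20, Usp18, Irgm1, Iigp1, Dhx58 and Samd9l) and 1 higher (Lgals3bp), with a limma adjusted p of 0.001 for Usp18 and 0.0048 for Samd9l, 1535 probe sets were called, 10 genes of the second list were lower and 2 receptor and signalling genes were higher. Same-numbered samples deviated together with a correlation of 0.313 over 2 pairs, which does not settle whether the numbers pair the samples.

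Some small differences changed sign without one sample, all uncalled: the ranges were −0.27 to 0.021 for Ifit1, −0.051 to 0.24 for Ifit2, −0.39 to 0.028 for Mx2, −0.16 to 0.019 for Oas2, −0.093 to 0.35 for Stat2, −0.16 to 0.35 for Ddx58, −0.074 to 0.21 for Eif2ak2, −0.14 to 0.24 for Bst2, −0.094 to 0.0024 for Rtp4, −0.33 to 0.051 for Ifi35, −0.28 to 0.16 for Ifnar1 and −0.053 to 0.057 for Ifnb1. Ifnb1 was also −0.036 without the technical arrays and −0.0026 with 6 arrays.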
